A study of Mus musculus with 16 samples.

Results

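Solute carriers are the membrane proteins that move amino acids, sugars, lactate, metal ions, nucleosides, vitamins and other small solutes across the plasma membrane and the membranes of organelles. The genes described here are the expressed members of this superfamily, 102 of the 328 Slc symbols measured, among 17097 genes in all. They were chosen by their level. A gene with a symbol of Slc followed by a digit was represented by the probe set that names only that gene and has the highest mean over the 16 arrays, and it was kept where the largest of its 6 group means was at least 6 on the log2 signal scale. Just inside this threshold stood Slc25a33 at 6.02, Slc25a14 at 6.10 and Slc25a32 at 6.13, and just outside it Slc35c2 and Slc35d1 at 5.99 and Slc46a3 at 5.97. In all, 66 of the 102 genes reached 6 in all 6 groups, and 6923 genes of the whole table (40.5%) reach the same threshold. Slc9a3r1 (a scaffold protein) and Slc2a4rg-ps (a transcribed pseudogene) carry the symbol without being transporters.

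The arrays measured RNA of naive T cells sorted from mice of C57BL/6 background. The groups were Tsc1-deficient and wild-type CD4 cells stimulated for 4 h with anti-CD3 and anti-CD28 antibodies coated on plates, in Click medium (3 arrays for each genotype), Tsc1-deficient and wild-type CD8 cells without stimulation (2 arrays each), and Tsc1-deficient and wild-type CD4 cells without stimulation (0 h, 3 arrays each). TSC1 is a subunit of the complex that restrains the kinase complex mTORC1, and the study addresses how it keeps naive T cells quiescent. The promoter that drove any Cre, the age of the mice and whether arrays of 1 group are separate mice are not stated in the labels, and the p-values therefore describe only how these arrays vary. In 1 sentence the labels name mice lacking HIF1a, while every genotype entry says Tsc1, and the genotype entries were followed.

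A naive T cell is small and metabolically quiet, and engagement of its antigen receptor and CD28 starts growth that draws in amino acids, glucose and metals. Among the best known carriers of this switch are the leucine exchanger made of SLC7A5 and its heavy chain SLC3A2, the glutamine carriers SLC1A5, SLC38A1 and SLC38A2, the glucose carriers SLC2A1 and SLC2A3, and the lactate carrier SLC16A1. mTORC1 senses amino acids that such carriers bring in, and in turn acts through MYC and ATF4, transcription factors that are known to bind genes of several carriers.

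The labels were first checked on the targeted gene. Tsc1 stood at 6.22, 6.46 and 6.50 in stimulated Tsc1-deficient CD4 cells, against 7.54, 7.37 and 7.45 in stimulated wild-type CD4 cells. It stood at 6.36 and 6.41 in Tsc1-deficient CD8 cells, against 6.99 and 6.88 in wild-type CD8 cells, and at 6.42, 6.54 and 6.50 in unstimulated Tsc1-deficient CD4 cells, against 7.25, 7.39 and 7.29 in unstimulated wild-type CD4 cells. The groups did not overlap in any of the 3 conditions, and the fitted changes were -1.06 ± 0.10, -0.55 ± 0.12 and -0.83 ± 0.10 (log2 change ± SE, adjusted p 4.63e-06, 0.00892 and 3.77e-05). Replicate arrays correlated at 0.992 to 0.997. Gapdh, whose 3′ minus 5′ log2 signal reports RNA integrity, gave 0.96 on stimulated Tsc1-deficient CD4 array 1 and 0.64 on Tsc1-deficient CD8 array 2, and 0.02 to 0.40 on the other arrays. T cell markers were high throughout (log2 of the summed signal of 7 genes 12.2 to 14.6), and Cd4 averaged 4.80 and 4.35 in Tsc1-deficient and wild-type CD8 cells. In unstimulated Tsc1-deficient and wild-type CD4 cells, Cd8a averaged 5.58 and 6.42 and Cd8b1 averaged 8.18 and 8.33, beside Cd4 at 8.98 and 8.95. Of the 7 T cell genes, 1 was called lower in Tsc1-deficient than in wild-type unstimulated CD4 cells, namely Cd8a (change -0.84). In stimulated CD4 cells 1 was called higher and 1 lower, with changes of the 7 genes from -0.83 to 0.91. In CD8 cells 0 were called.

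Marker genes of other cell types moved with genotype. The log2 summed signal of 9 neutrophil genes ran from 8.51 to 10.2 in Tsc1-deficient and from 6.40 to 7.17 in wild-type stimulated CD4 cells, from 8.69 to 9.82 and from 6.90 to 8.36 in CD8 cells, and from 8.17 to 10.3 and from 6.78 to 8.13 in unstimulated CD4 cells. Of the 9 genes, 4, 0 and 1 were called higher in these 3 comparisons, and 2 (Elane and Cxcr2) lay below the table median of 3.36 in every group. Of 10 monocyte, macrophage or dendritic cell genes 3, 0 and 0 were called higher, of 7 B cell genes 1, 1 and 1, and of 6 NK or NKT cell genes 1, 1 and 2 (changes up to 1.18, 0.99 and 1.61). None of the 4 erythroid and 4 platelet genes was called. The part of these cells in the genotype changes given below was not tested. In bulk RNA, fewer cells of a type and less RNA per cell cannot be told apart.

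Differences were tested with limma in 1 model of all 6 groups and 17097 genes, and a gene is called where the p-value, adjusted by the Benjamini-Hochberg method within the comparison, is under 0.05. A log2 change of 1 is a 2-fold change. Levels are log2 signals, given as the array values or as mean ± SD, and changes are given as log2 change ± SE. Levels of different genes come from different probe sets and are not compared.

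Stimulation moved most of these carriers, and more of them down than up. In Tsc1-deficient CD4 cells 28 of the 102 genes rose and 42 fell between 4 h and 0 h, and in wild-type CD4 cells 27 rose and 42 fell. In the same test 35.3% of all genes were called in Tsc1-deficient cells and 31.9% in wild-type cells. Among the 6923 genes at the same level, 25.5% rose and 38.6% fell in Tsc1-deficient cells, and 24.6% rose and 33.9% fell in wild-type cells, so the carriers (27.5% and 41.2%, and 26.5% and 41.2%) lay close to the genes of their level. Their median change was -0.21 in Tsc1-deficient and -0.12 in wild-type cells, beside -0.10 and -0.05 over the genes at the same level. The choice by the largest group mean bears on these counts: 18 carriers reached 6 in Tsc1-deficient CD4 cells only at 0 h (14 of them fell) and 7 only at 4 h (6 rose), and in wild-type cells 20 only at 0 h (18 fell) and 3 only at 4 h (all 3 rose). Among the 66 carriers at 6 or above in all groups, 21 rose and 22 fell in Tsc1-deficient cells and 20 rose and 21 fell in wild-type cells. No group was kept in culture for 4 h without the antibodies, so the antibodies and the culture cannot be told apart.

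**Figure D1:**
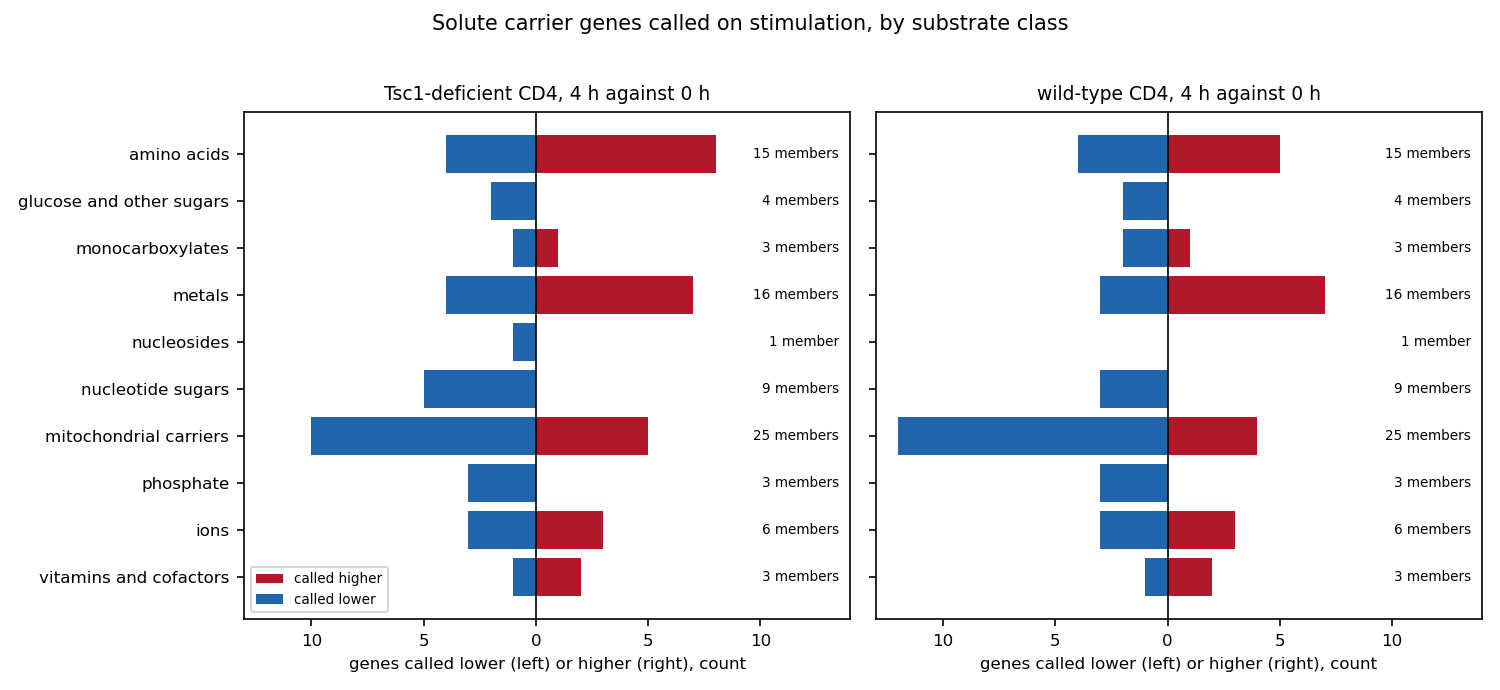
Number of carrier genes called higher (right, red) or lower (left, blue) at 4 h against 0 h, in Tsc1-deficient CD4 cells (left panel) and wild-type CD4 cells (right panel), for 10 substrate classes, with the number of genes in each class at the right. In Tsc1-deficient and wild-type cells 8 and 5 amino acid carriers rose and 4 and 4 fell, and 5 and 4 mitochondrial carriers rose and 10 and 12 fell.

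Carriers of amino acids numbered 15. On stimulation 8 rose and 4 fell in Tsc1-deficient CD4 cells, and 5 rose and 4 fell in wild-type CD4 cells. Slc38a2, the sodium-coupled importer of small neutral amino acids, stood at 10.71, 11.03 and 10.95 at 4 h, against 9.54, 9.96 and 9.99 at 0 h in Tsc1-deficient cells. In wild-type cells it stood at 10.94, 10.75 and 10.82 at 4 h, against 9.87, 10.06 and 9.98 at 0 h. The 4 h arrays lay above all 0 h arrays in both genotypes, with rises of 1.07 ± 0.14 (adjusted p = 9.30e-06) and 0.87 ± 0.14 (adjusted p = 0.000105). A second Slc38a2 probe set with a mean level of 9.39 changed by 0.39 and -0.01, and averaging the probe sets lost the wild-type call (0.34, adjusted p = 0.0509). Its relative Slc38a1, which carries glutamine, fell in both, by 0.60 ± 0.11 in Tsc1-deficient and by 0.70 ± 0.11 in wild-type cells, and Slc38a6 fell by 1.10 and 1.36. Slc6a6, the taurine carrier, rose by 0.55 ± 0.08 and 0.43 ± 0.08. The lysosomal arginine sensor Slc38a9, known to signal to mTORC1, changed by 0.36 ± 0.14 in Tsc1-deficient cells (adjusted p = 0.0555) and rose by 0.42 ± 0.14 in wild-type cells (adjusted p = 0.0289). Its other probe sets, with mean levels of 6.27, 5.93 and 4.42, changed by -0.11, 0.51 and 0.10 in wild-type cells. The wild-type call was lost in 3 of 6 omissions of an array and on averaging the probe sets (0.23, adjusted p = 0.0662). Slc38a10 rose by 0.30 ± 0.11 in Tsc1-deficient cells, beside 0.17 ± 0.11 in wild-type cells (adjusted p = 0.281), and the lysosomal carrier Slc36a1 fell by 0.48 ± 0.14 in wild-type cells, beside -0.31 ± 0.14 in Tsc1-deficient cells (adjusted p = 0.0992).

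Both subunits of the leucine exchanger rose in Tsc1-deficient cells, and the wild-type changes were not called. Slc3a2, its heavy chain, stood at 9.49, 9.34 and 9.10 in Tsc1-deficient cells at 4 h, against 8.39, 8.64 and 8.62 at 0 h, and at 8.76, 8.85 and 8.64 in wild-type cells at 4 h, against 8.45, 8.54 and 8.47 at 0 h. The rise was 0.76 ± 0.11 in Tsc1-deficient cells (adjusted p = 1.75e-05), and the wild-type value of 0.26 ± 0.11 missed the threshold (adjusted p = 0.0709). Its light chain Slc7a5 stood at 8.07, 8.41 and 7.94 in Tsc1-deficient cells at 4 h, against 7.52, 7.63 and 7.66 at 0 h, a rise of 0.54 ± 0.13 (adjusted p = 0.00300), beside 0.21 ± 0.13 in wild-type cells (adjusted p = 0.271), where the arrays overlapped. Slc7a1, the arginine and lysine importer, followed the same form, with a rise of 0.69 ± 0.14 in Tsc1-deficient cells (adjusted p = 0.000693) and no called change in wild-type cells (95% interval -0.30 to 0.30). The difference between the genotypes' responses was not called for any of the 3 genes: it was 0.50 for Slc3a2 (95% interval 0.18 to 0.81, adjusted p = 0.155), 0.33 for Slc7a5 (-0.06 to 0.72, adjusted p = 0.518) and 0.69 for Slc7a1 (0.27 to 1.11, adjusted p = 0.124). Slc7a6, the light chain of an exchanger of cationic and neutral amino acids, rose by 0.56 ± 0.15 in Tsc1-deficient and by 0.99 ± 0.15 in wild-type cells. Its other probe set, with a mean level of 6.49, changed by -0.20 and 0.04, and averaging both lost the Tsc1-deficient call (0.18, adjusted p = 0.182) and brought the wild-type rise to 0.51, still called. Slc1a5, the glutamine exchanger, was called in no comparison, and its group means ran from 7.40 to 7.99.

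Between the genotypes few amino acid carriers were called. In stimulated CD4 cells Slc3a2 was higher in Tsc1-deficient cells by 0.56 ± 0.11 (adjusted p = 0.00283), with the 3 Tsc1-deficient arrays above all 3 wild-type arrays. Slc7a6 stood at 6.94, 7.51 and 7.34 in Tsc1-deficient cells, against 7.80, 7.81 and 7.65 in wild-type cells, and was lower by 0.49 ± 0.15 (change -0.49, adjusted p = 0.0456), a call lost when any of 5 of the 6 arrays was left out. In CD8 cells Slc43a2, a facilitator of large neutral amino acids, stood at 8.38 and 8.47 in Tsc1-deficient cells, against 7.52 on both wild-type arrays. It was higher by 0.90 ± 0.18 (adjusted p = 0.00549), a call lost without wild-type CD8 array 1. Its relative Slc43a1, below the level threshold with a largest group mean of 4.94, was also called higher there, by 1.02 ± 0.22. Slc7a3, another amino acid carrier below the threshold, was called lower in stimulated Tsc1-deficient CD4 cells (change -0.71 ± 0.19, adjusted p = 0.0270). Slc3a1, partner of a cystine carrier in kidney, rose by 2.74 and 1.96 on stimulation and was 0.44 ± 0.13 higher in stimulated Tsc1-deficient than in stimulated wild-type cells (adjusted p = 0.0466), where the arrays overlapped. That genotype call was lost in 4 of 6 omissions of an array and under 7 other settings, and Slc3a1 reached the level threshold only in stimulated Tsc1-deficient cells. Other probe sets on the array name Slc3a1 together with its neighbour Prepl, so its values are uncertain.

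The clearest difference between lineages was in Slc6a19, the sodium-coupled neutral amino acid carrier best known from intestine and kidney. It stood at 8.97 and 8.70 in Tsc1-deficient CD8 cells, against 7.67 and 7.74 in wild-type CD8 cells. In unstimulated CD4 cells it stood at 4.02, 4.63 and 4.58 in Tsc1-deficient cells, against 2.75, 2.97 and 2.42 in wild-type cells, where its level lay below the table median. In stimulated CD4 cells it stood at 3.49, 3.75 and 3.54 in Tsc1-deficient cells, against 3.28, 3.18 and 2.49 in wild-type cells. Every CD8 array therefore lay above every CD4 array, and wild-type CD8 cells exceeded wild-type CD4 cells at least 20.3-fold with the table median as the floor (fitted change 4.99 ± 0.22, adjusted p = 3.00e-10). Tsc1 deficiency raised it by 1.13 ± 0.24 in CD8 cells (adjusted p = 0.0107) and at least 2.07-fold in unstimulated CD4 cells (fitted change 1.70 ± 0.20, adjusted p = 4.54e-05), and the value in stimulated CD4 cells, 0.61 ± 0.20, missed the threshold (adjusted p = 0.0686). The CD8 call was lost without either wild-type CD8 array or without Tsc1-deficient array 1. Slc6a19 passed the level threshold only through its CD8 groups, so a difference between lineages was part of how it entered the set. Toward higher coordinates of chromosome 13, the next protein-coding gene in RefSeq is the potassium-chloride cotransporter Slc12a7, and the other side of Slc6a19 was not examined. Slc12a7 was also higher in wild-type CD8 than in wild-type CD4 cells, by 0.70 ± 0.13 (adjusted p = 0.00354).

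**Figure D2:**
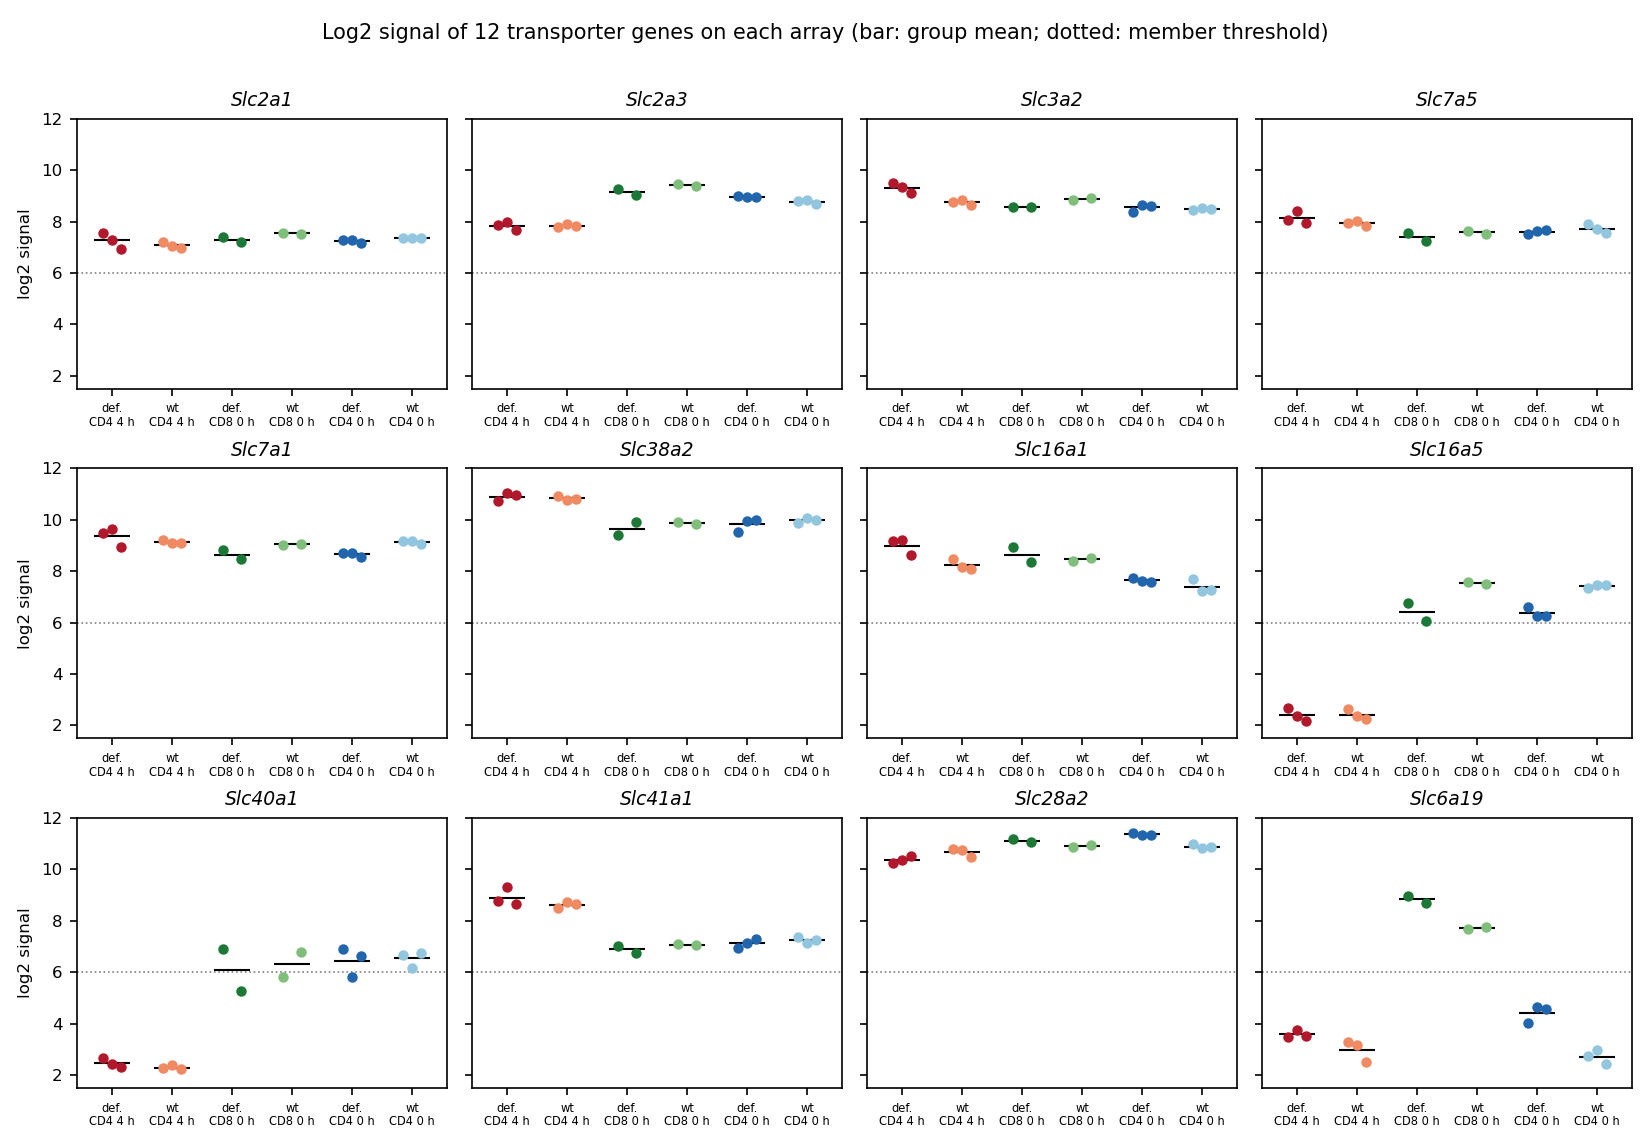
Log2 signal on each of the 16 arrays (points) with group means (bars) for 12 carriers, groups from left to right being stimulated CD4, unstimulated CD8 and unstimulated CD4 cells, each with Tsc1-deficient (def.) before wild-type (wt), and the dotted line marking the level threshold of 6. Slc16a5 and Slc40a1 lie near 2.4 in both stimulated groups, and Slc6a19 lies above 7.6 in both CD8 groups.

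Glucose carriers did not rise at 4 h. Slc2a1, the basal glucose importer of most cells, stood at 7.56, 7.29 and 6.94 in Tsc1-deficient cells at 4 h, against 7.28, 7.27 and 7.16 at 0 h, and at 7.20, 7.05 and 6.97 in wild-type cells at 4 h, against 7.36, 7.38 and 7.35 at 0 h. It was called in no comparison, and the 95% intervals of its stimulation changes were -0.24 to 0.29 in Tsc1-deficient and -0.55 to -0.02 in wild-type cells. Slc2a3, the high-affinity glucose importer of lymphocytes and neurons, fell clearly: it stood at 7.85, 7.97 and 7.66 in Tsc1-deficient cells at 4 h, against 8.99, 8.97 and 8.97 at 0 h, and at 7.79, 7.92 and 7.83 in wild-type cells at 4 h, against 8.80, 8.84 and 8.70 at 0 h. These are falls of 2.21-fold (log2 change -1.15 ± 0.10, adjusted p = 6.46e-08) and 1.91-fold (-0.93 ± 0.10, adjusted p = 9.50e-07). Slc50a1, the animal relative of plant sugar exporters, fell by 1.46 ± 0.09 and 1.33 ± 0.09. Slc2a3 was higher in wild-type CD8 than in wild-type CD4 cells by 0.65 ± 0.11 (adjusted p = 0.00128), and none of the 4 sugar carriers was called between the genotypes in any condition.

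Of the enzymes and regulators around these carriers, lists that overlap those of an earlier account of these arrays gave the following counts, to be read beside the 5.59%, 3.64% and 3.96% of all genes called higher in Tsc1-deficient cells in stimulated CD4, CD8 and unstimulated CD4 cells. Glycolysis genes numbered 13, of which 6, 1 and 1 were higher (46.2%, 7.69% and 7.69%) and 0 lower in Tsc1-deficient cells in these 3 conditions, among them the isomerase Tpi1 (1.02 ± 0.12 in stimulated CD4 cells) and the aldolase Aldoc (0.93, 1.30 and 1.54). Their median changes were 0.27, 0.18 and 0.19. On stimulation 2 rose and 6 fell in Tsc1-deficient cells (15.4% and 46.2%), beside 13.8% and 21.5% of all genes. In wild-type cells 1 rose and 5 fell (7.69% and 38.5%), beside 12.8% and 19.1%. Among the genes at the carriers' level, 25.5% rose and 38.6% fell in Tsc1-deficient cells, and 24.6% and 33.9% in wild-type cells. Of 5 partners of carriers (Bsg, Emb, Txnip, Arrdc3 and Arrdc4), 3 rose and 1 fell in Tsc1-deficient cells, and 4 rose and 1 fell in wild-type cells. The lowest changes were -0.93 and -0.91. Txnip and Arrdc4, arrestins known to remove glucose carriers from the cell surface, rose on stimulation by 0.85 and 2.51 in Tsc1-deficient and by 0.93 and 2.01 in wild-type cells. Amino acid synthesis and ATF4 response genes numbered 15, of which 7, 3 and 6 were higher (46.7%, 20% and 40%) and 0 lower in Tsc1-deficient cells in the same 3 conditions, with median changes of 0.39, 0.33 and 0.36. Examples are Psph and Phgdh of serine synthesis (1.11 and 0.90 in stimulated CD4 cells) and the ATF4 target Trib3 (0.50, 0.82 and 0.83). Slc7a11, a carrier that ATF4 is known to induce, had a largest group mean of 3.15, below the table median.

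The 3 monocarboxylate carriers differed from each other. Slc16a1 (MCT1), the exporter of lactate, stood at 9.17, 9.19 and 8.61 in Tsc1-deficient CD4 cells at 4 h, against 7.75, 7.61 and 7.60 at 0 h, and at 8.46, 8.16 and 8.09 in wild-type cells at 4 h, against 7.68, 7.24 and 7.28 at 0 h. The 4 h arrays exceeded all 0 h arrays, with rises of 2.54-fold (1.34 ± 0.17, adjusted p = 7.22e-06) and 1.79-fold (0.84 ± 0.17, adjusted p = 0.000999). At 4 h all Tsc1-deficient arrays exceeded all wild-type arrays, by 0.76 ± 0.17 in the mean (adjusted p = 0.0101). Averaging its 2 probe sets gave this change at 0.36, still called. In wild-type CD8 cells Slc16a1 stood at 8.41 and 8.52, against 7.68, 7.24 and 7.28 in wild-type CD4 cells, higher by 1.06 ± 0.19 (adjusted p = 0.00260). Slc16a3 (MCT4), the lactate exporter of highly glycolytic cells, had a largest group mean of 2.74, below the table median.

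Slc16a5 (MCT6), known as a carrier of drugs such as bumetanide in frog oocytes, fell below the table median of 3.36 on stimulation. It stood at 2.69, 2.36 and 2.17 in Tsc1-deficient CD4 cells at 4 h, against 6.60, 6.27 and 6.27 at 0 h, and at 2.65, 2.37 and 2.23 in wild-type cells at 4 h, against 7.33, 7.47 and 7.47 at 0 h. At 4 h both genotypes overlapped at levels where the signal may be background, so the falls are lower bounds: at least 8.12-fold in Tsc1-deficient and at least 16.7-fold in wild-type cells with the table median as the floor (fitted changes -3.98 ± 0.17 and -5.01 ± 0.17, adjusted p 2.25e-11 and 1.87e-12). Before stimulation it was lower in Tsc1-deficient cells in both lineages, by a change of -1.04 ± 0.17 in CD4 cells (adjusted p = 0.000991) and of -1.14 ± 0.21 in CD8 cells (adjusted p = 0.00325), where it stood at 6.75 and 6.06 against 7.57 and 7.52. Neither call was lost when any array was left out. The fitted responses to stimulation differed by 1.03 ± 0.24 (adjusted p = 0.0457). With both genotypes below the table median at 4 h, that value restates the 0 h difference and does not compare the responses, and its call was lost in 9 of the 12 omissions of an array. Slc16a6, a ketone body carrier in zebrafish liver, fell in wild-type cells by 0.68 ± 0.17 (adjusted p = 0.00381), beside -0.23 ± 0.17 in Tsc1-deficient cells (adjusted p = 0.350), and was higher in wild-type CD8 than CD4 cells by 0.89 ± 0.18 (adjusted p = 0.00804).

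Metal carriers numbered 16, of which 7 rose and 4 fell in Tsc1-deficient and 7 rose and 3 fell in wild-type CD4 cells on stimulation. The zinc exporters of the SLC30 family (6 genes) and the zinc and metal importers of the SLC39 family (7 genes) each had 3 genes that rose and 1 that fell in both genotypes. The plasma membrane zinc importer Slc39a6 rose by 0.83 ± 0.13 and 0.97 ± 0.13, Slc39a1 by 1.08 ± 0.11 and 1.16 ± 0.11, and Slc30a7, which fills the Golgi with zinc, by 1.24 ± 0.17 and 0.85 ± 0.17. Slc30a9 rose by 0.67 ± 0.09 and 0.61 ± 0.09, and Slc39a14, an importer of zinc and iron, by 0.37 ± 0.10 and 0.34 ± 0.10. Slc39a11 fell by 1.51 ± 0.11 in Tsc1-deficient and 1.43 ± 0.11 in wild-type cells. Slc41a1, a magnesium carrier, stood at 8.76, 9.30 and 8.64 in Tsc1-deficient cells at 4 h, against 6.96, 7.12 and 7.30 at 0 h, and at 8.48, 8.73 and 8.66 in wild-type cells at 4 h, against 7.35, 7.15 and 7.25 at 0 h. Its arrays separated fully by time, with rises of 3.42-fold and 2.59-fold (1.78 ± 0.15 and 1.37 ± 0.15, adjusted p 4.48e-08 and 1.15e-06).

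Slc40a1, ferroportin, the only known iron exporter of mammalian cells, moved the other way. It stood at 2.65, 2.41 and 2.32 in Tsc1-deficient CD4 cells at 4 h, against 6.89, 5.82 and 6.64 at 0 h, and at 2.27, 2.40 and 2.22 in wild-type cells at 4 h, against 6.69, 6.18 and 6.74 at 0 h. The 4 h levels lay below the table median, so the falls are again lower bounds, at least 8.51-fold in Tsc1-deficient and at least 9.04-fold in wild-type cells (fitted changes -3.99 ± 0.34 and -4.24 ± 0.34, adjusted p 6.76e-08 and 4.37e-08), and genotype made no called difference. In unstimulated cells its arrays were widely spread, at 6.92 and 5.25 in Tsc1-deficient and 5.83 and 6.80 in wild-type CD8 cells. Ferroportin is best known from macrophages. Of 10 monocyte, macrophage or dendritic cell genes, 7 were called lower on stimulation in Tsc1-deficient and 8 in wild-type cells. The log2 summed signal of the 10 genes ran from 7.30 to 7.77 at 4 h against 8.36 to 9.04 at 0 h in Tsc1-deficient cells, and from 6.82 to 7.10 against 8.07 to 8.49 in wild-type cells. Cd14, Itgam and Itgax of that list lay below the table median in all 6 groups. Other marker lists fell too: all 7 T cell genes were called lower in both genotypes. So were 2 and 4 of 7 B cell genes and 4 and 3 of 6 NK or NKT cell genes, in Tsc1-deficient and wild-type cells. Of 9 neutrophil, 4 erythroid and 4 platelet genes 0 were called lower. Among all genes 21.5% and 19.1% were called lower. The part of macrophages and related cells in the fall of Slc40a1 was not tested.

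Zinc exporters were among the few metal genes called between the genotypes. Slc30a1 (ZnT1), the zinc exporter of the plasma membrane, stood at 6.58, 6.94 and 6.83 in stimulated Tsc1-deficient CD4 cells, against 7.34, 7.21 and 7.16 in stimulated wild-type CD4 cells, and at 7.0, 7.32 and 7.14 in unstimulated Tsc1-deficient cells, against 7.71, 7.57 and 7.58 in unstimulated wild-type cells. The arrays did not overlap at either time, and the changes were -0.45 ± 0.11 (adjusted p = 0.0178) and -0.47 ± 0.11 (adjusted p = 0.0214). In CD8 cells the change was -0.47 ± 0.14 and missed the threshold (adjusted p = 0.0601). Each CD4 call was lost in some omissions of an array, in 2 of 6 at 4 h and in 5 of 6 at 0 h, and both were lost when its 2 probe sets were averaged. Slc30a4 (ZnT4), which loads zinc into vesicles, stood at 6.37, 6.38 and 6.59 in unstimulated Tsc1-deficient CD4 cells, against 7.50, 6.95 and 7.06 in wild-type cells, a change of -0.72 ± 0.17 (adjusted p = 0.0154), lost in 3 of 6 omissions. In CD8 cells Slc39a1 was higher in Tsc1-deficient cells by 0.56 ± 0.13 (adjusted p = 0.0204), a call lost in 3 of 4 omissions. Among 12 other genes of iron, copper and zinc handling, 3, 3 and 4 were higher (25%, 25% and 33.3%, beside 5.59%, 3.64% and 3.96% of all genes) and 0 lower in Tsc1-deficient cells in stimulated CD4, CD8 and unstimulated CD4 cells, with median changes of 0.32, 0.10 and 0.20. They included the ferritin light chain Ftl1 (0.79, 0.83 and 0.61) and, in unstimulated CD4 cells, metallothionein Mt1 (0.78 ± 0.15), which like Slc30a1 is a known target of the zinc-sensing factor MTF1.

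Slc28a2 (CNT2), the concentrative carrier of purine nucleosides and uridine, was the 1 nucleoside carrier at this level. It stood at 10.23, 10.35 and 10.50 in Tsc1-deficient CD4 cells at 4 h, against 11.43, 11.32 and 11.35 at 0 h, and at 10.79, 10.74 and 10.47 in wild-type cells at 4 h, against 10.99, 10.81 and 10.86 at 0 h. It fell in Tsc1-deficient cells by 1.00 ± 0.10 (adjusted p = 4.92e-07), and the wild-type value was -0.22 ± 0.10 (adjusted p = 0.124). The responses differed by -0.78 ± 0.14 (95% interval -1.09 to -0.48, adjusted p = 0.0127), a call kept in all 12 omissions of an array and lost with neighbouring array numbers as a replicate block (adjusted p = 0.0506). Before stimulation Tsc1-deficient CD4 cells were higher by 0.48 ± 0.10 (adjusted p = 0.00867), and after it the value was -0.30 ± 0.10 (adjusted p = 0.0783). In CD8 cells the change was 0.20 ± 0.13 (adjusted p = 0.438). Adenosine deaminase Ada, which uses up the nucleoside that this carrier brings in, was higher in Tsc1-deficient cells in stimulated CD4, CD8 and unstimulated CD4 cells (1.26, 1.03 and 1.12), and of 12 genes of nucleoside use 2, 2 and 3 were higher (16.7%, 16.7% and 25%, beside the same shares of all genes) and 1, 0 and 0 lower. The equilibrative nucleoside carriers Slc29a1 and Slc29a3 stayed below the level threshold, with largest group means of 5.34 and 5.29, as did the nucleobase carrier Slc43a3 (5.06).

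Mitochondrial carriers of the SLC25 family were the largest class, with 25 genes. On stimulation 5 rose and 10 fell in Tsc1-deficient CD4 cells, and 4 rose and 12 fell in wild-type cells. These are 20% and 40%, and 16% and 48%, beside 25.5% and 38.6%, and 24.6% and 33.9%, of the genes at the same level. Slc25a12, an exchanger of aspartate and glutamate, fell by 1.52 ± 0.12 and 1.49 ± 0.12, the mitoferrin Slc25a37 by 1.03 ± 0.13 and 0.77 ± 0.13, and the ADP and ATP exchanger Slc25a4 by 0.90 ± 0.11 and 0.81 ± 0.11. Slc25a3, the mitochondrial phosphate carrier, rose by 0.83 ± 0.10 and 0.65 ± 0.10, and the pyrimidine nucleotide carrier Slc25a36 by 1.05 ± 0.09 and 0.73 ± 0.09. Slc25a16 fell by 1.54 ± 0.20 and 1.08 ± 0.20. Slc25a4 also differed by lineage, at 10.64 and 10.53 in wild-type CD8 cells, against 9.70, 9.64 and 9.60 in wild-type CD4 cells, higher by 0.94 ± 0.12 (adjusted p = 7.77e-05). In stimulated CD4 cells the carnitine carrier Slc25a20 (0.54 ± 0.13), Slc25a14 (0.44 ± 0.10), the mitochondrial glutathione carrier Slc25a40 (0.39 ± 0.10) and the mitoferrin Slc25a28 (0.38 ± 0.11) were higher in Tsc1-deficient cells. The calls of Slc25a20, Slc25a40 and Slc25a28 were lost in 1, 3 and 3 of 6 omissions, and Slc25a14 reached the level threshold only in the group in which it was higher. Slc25a45 stood at 5.51, 5.33 and 5.62 in stimulated Tsc1-deficient cells, against 5.84, 5.80 and 5.87 in stimulated wild-type cells, and at 7.36, 7.15 and 7.41 in unstimulated Tsc1-deficient cells, against 6.95, 6.91 and 6.92 in unstimulated wild-type cells. It was thus lower at 4 h (change -0.35 ± 0.10, adjusted p = 0.0372) and higher at 0 h (0.38 ± 0.10, adjusted p = 0.0334), and the responses differed by -0.73 ± 0.14 (adjusted p = 0.0171). Each of the calls at 4 h and 0 h was lost in 5 of 6 omissions of an array, and that of the responses in 3 of 12 (adjusted p of 0.0503 to 0.0531).

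In the remaining classes, all 3 genes grouped here under phosphate (Slc20a1, Slc37a1 and Slc37a4) fell in both genotypes. Slc20a1, the sodium-phosphate importer, fell by 0.46 ± 0.09 in Tsc1-deficient and 0.61 ± 0.09 in wild-type cells. The mitochondrial phosphate carrier Slc25a3, which rose, was counted with the mitochondrial carriers and not in this group. SLC35 genes classed here with the carriers of nucleotide sugars, which feed glycosylation in the Golgi, numbered 9. Of these, 5 fell in Tsc1-deficient and 3 in wild-type cells and 0 rose. The GDP-fucose carrier Slc35c1 fell by 0.57 and 1.01 and was higher in Tsc1-deficient than in wild-type cells at 4 h, by 0.57 ± 0.12 (adjusted p = 0.00587), and in CD8 cells, by 0.59 ± 0.15 (adjusted p = 0.0266), the CD8 call being lost in 3 of 4 omissions. Slc35b1, counted among these 9 though it brings ATP into the endoplasmic reticulum, was higher in Tsc1-deficient CD8 cells by 0.37 ± 0.10 (adjusted p = 0.0422), a call lost in 4 of 4 omissions. The chloride cotransporters of the SLC12 family split: Slc12a4 and Slc12a2 rose in both genotypes and Slc12a7 fell. Slc12a4 (KCC1) stood at 6.84, 6.65 and 6.74 in stimulated Tsc1-deficient CD4 cells, against 5.83, 6.02 and 5.84 in stimulated wild-type CD4 cells, higher by 0.84 ± 0.12 (adjusted p = 0.000328). It reached the level threshold only in stimulated Tsc1-deficient CD4 cells, so that it lay higher there was part of how it entered the set. The vitamin carriers Slc19a2 (thiamine) and Slc23a2 (ascorbate) rose by 1.36 and 1.24 in Tsc1-deficient and by 1.18 and 0.98 in wild-type cells, while the folate carrier Slc19a1 fell by 0.58 and 0.35. Slc14a1, the urea channel first known from red cells, stood at 3.39, 3.67 and 4.21 in Tsc1-deficient cells at 4 h, against 6.86, 6.79 and 6.76 at 0 h, and at 4.51, 4.66 and 4.71 in wild-type cells at 4 h, against 7.39, 7.21 and 7.16 at 0 h. Its falls were 8.28-fold and 6.19-fold, and at 4 h it was lower in Tsc1-deficient cells by a change of -0.87 ± 0.16 (adjusted p = 0.00220), a call not kept when its 2 probe sets were averaged (-0.50, adjusted p = 0.0761). Slc44a2, a choline carrier-like protein, was also lower there, at 10.26, 9.85 and 10.48 against 10.95, 10.98 and 10.97 (change -0.77 ± 0.14, adjusted p = 0.00179), as was the sulfate carrier Slc26a11 (-0.44 ± 0.11, adjusted p = 0.0131). The Slc26a11 call was lost in 2 omissions of an array and when the compared groups were fitted alone. Slc35e2, a relative of nucleotide sugar carriers with no settled substrate, rose by 1.74 ± 0.20 in Tsc1-deficient and by 1.58 ± 0.20 in wild-type cells.

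Slc15a2 (PEPT2), the proton-coupled carrier of small peptides, varied more within groups than any other carrier. It stood at 10.56, 7.54 and 8.46 in Tsc1-deficient CD4 cells at 4 h, against 8.94, 5.81 and 6.97 at 0 h, and at 9.36, 9.74 and 9.09 in wild-type cells at 4 h, against 7.39, 7.99 and 6.90 at 0 h. In CD8 cells it stood at 9.0 and 7.15 in Tsc1-deficient cells, against 8.25 and 7.35 in wild-type cells. The rise was called in wild-type cells (1.97 ± 0.73, adjusted p = 0.0485), a call lost without any 1 of the 6 arrays, and the Tsc1-deficient value of 1.61 ± 0.73 missed the threshold (adjusted p = 0.104). With neighbouring array numbers as a replicate block both rises were called, at adjusted p of 9.55e-07 in Tsc1-deficient and 3.24e-07 in wild-type cells. Its values keep their order over these numbers and were seen first, so these p-values add no separate support. Deviations of neighbouring arrays correlated at only 0.030 to 0.077, so the numbers were not shown to pair samples. The other 2 probe sets of Slc15a2, with mean levels of 3.02 and 2.94, did not show the rise.

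**Figure D3:**
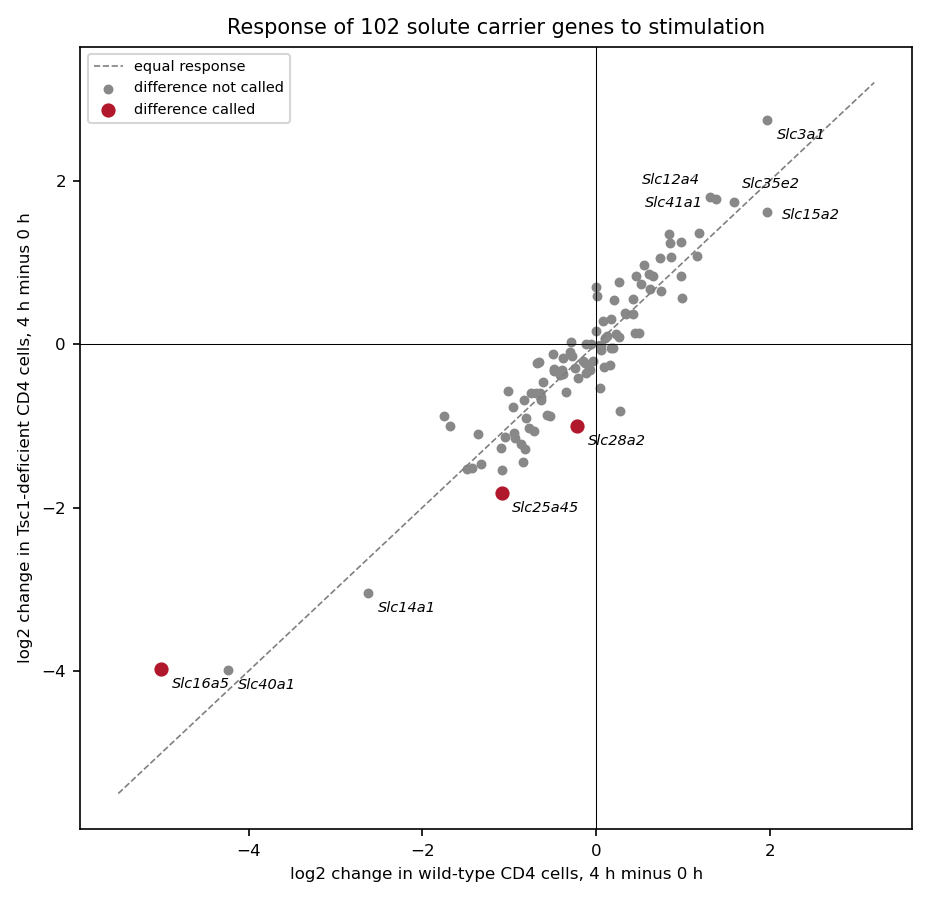
Log2 change at 4 h against 0 h in Tsc1-deficient CD4 cells (vertical axis) and wild-type CD4 cells (horizontal axis) for the 102 carriers, with the dashed line marking equal responses and red points the 3 genes with a called difference in fitted change. Most points lie near the dashed line, Slc16a5 lies above it, and Slc28a2 and Slc25a45 lie below it.

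The responses of the 2 genotypes to stimulation rest on separate arrays and were alike in direction for most carriers. Rises were called in both genotypes for 23 genes and falls in both for 36, with 0 genes called in opposite directions, 11 called in Tsc1-deficient cells only, 10 in wild-type cells only and 22 in neither. A difference between the responses was called for 3 of the 102 carriers (1 positive, Slc16a5, whose 4 h levels lay below the table median, and 2 negative, Slc25a45 and Slc28a2), beside 1.2% of all genes. At an unadjusted p under 0.05 the difference stood for 19 of the 102 carriers, beside 1266 of the 6923 genes at the same level and 2017 of all 17097 genes. Being called in 1 genotype only thus does not by itself show a different response, and a difference that was not called does not show equal responses.

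Between the genotypes, the carriers were called about as often as other genes. In stimulated CD4 cells 9 were higher and 7 lower (8.82% and 6.86%), beside 10.1% and 8.09% of the genes at the same level and 9.45% of all genes called either way. In CD8 cells 6 were higher and 6 lower (5.88% each), beside 6.6% and 4.38%, and 5.82% of all genes. In unstimulated CD4 cells 4 were higher and 6 lower (3.92% and 5.88%), beside 7.35% and 3.47%, and 5.83% of all genes. Median changes of the carriers were 0.05, -0.02 and 0.02, beside -0.01, -0.01 and 0.02 over the genes at the same level. In all, 30 carriers were called in at least 1 of the 3 comparisons: 23 in 1, 6 in 2 (Slc16a5, Slc25a36, Slc25a45, Slc30a1, Slc35c1 and Slc6a19) and Slc49a4 in all 3. Of the calls, 7 of 16, 3 of 12 and 4 of 10 were kept in every omission of an array. The level threshold bears on them too. In stimulated CD4 cells 7 carriers reached 6 only in Tsc1-deficient cells (4 of them called higher) and 2 only in wild-type cells (1 called lower), in CD8 cells 6 (0 higher) and 2 (2 lower), and in unstimulated CD4 cells 1 (0 higher) and 2 (1 lower). Among the 66 carriers at 6 or above in all groups, 5, 4 and 1 were higher and 3, 3 and 3 lower. Differences between the genotype changes of CD8 and unstimulated CD4 cells were called by limma for 0 of the 102 carriers, beside 0.117% of all genes. At an unadjusted p under 0.05 stood 11 of the 102 carriers, beside 639 of the 6923 genes at the same level and 1328 of all 17097 genes. Without the arrays with the high Gapdh values, 23 carriers were called between the genotypes in unstimulated CD4 cells, among them all 10 given here.

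**Figure D4:**
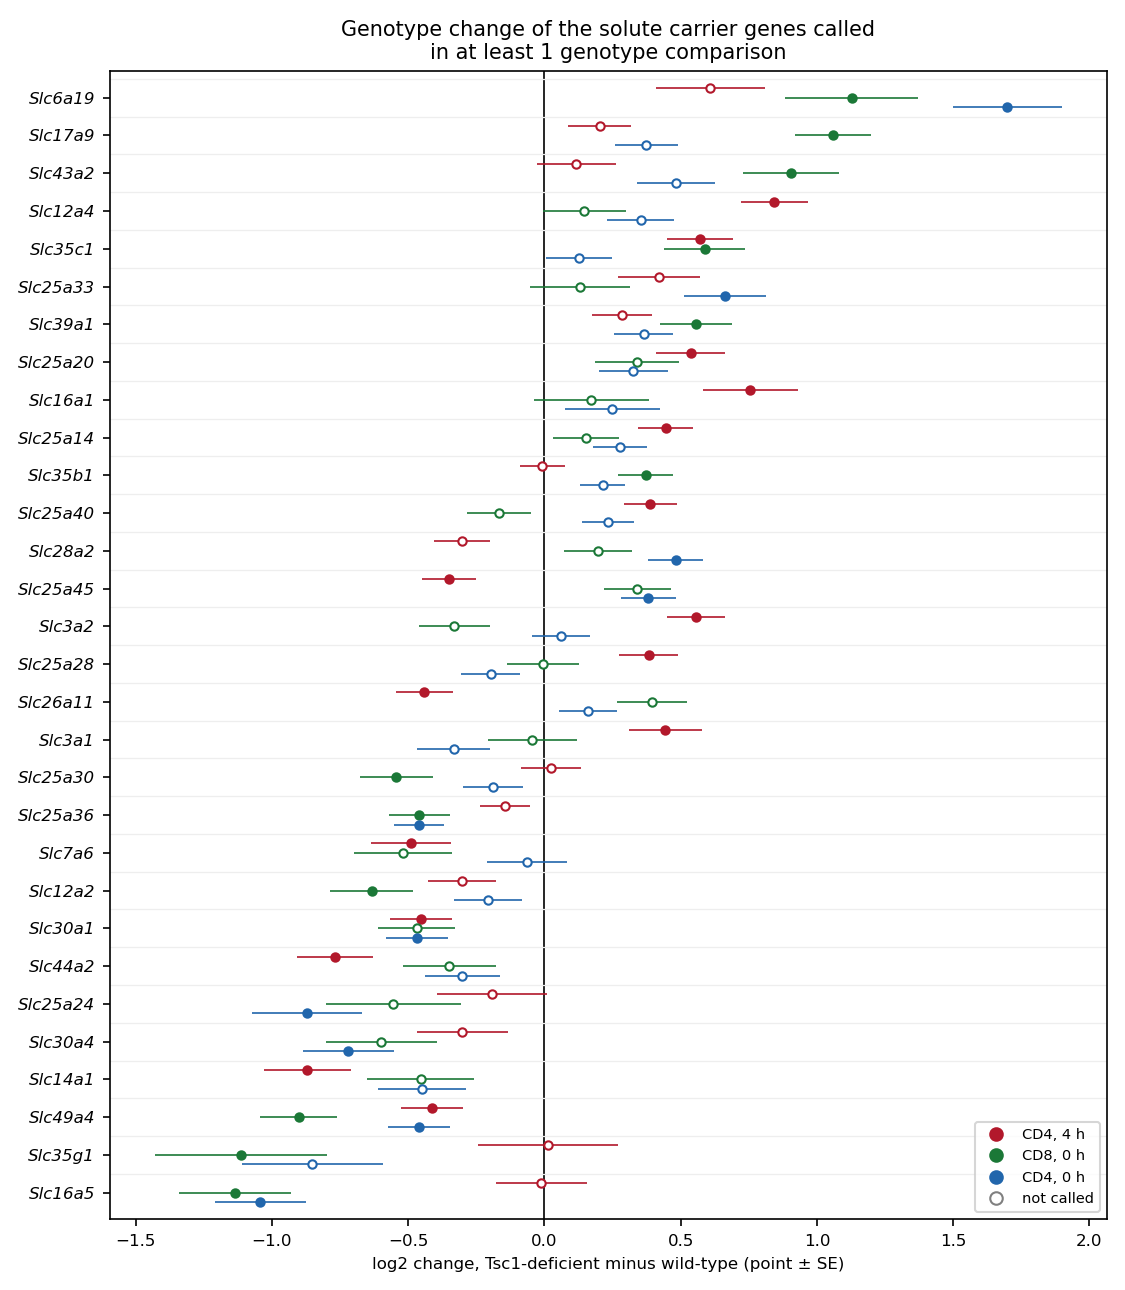
Log2 change (Tsc1-deficient minus wild-type, point ± SE) of the 30 carriers called in at least 1 genotype comparison, in stimulated CD4 (red), unstimulated CD8 (green) and unstimulated CD4 cells (blue), with open points for changes that were not called. Slc49a4 is the gene with 3 filled points, all left of 0, and Slc25a45 has filled points on both sides of 0.

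Slc49a4, a lysosomal membrane protein also known as Dirc2, stood at 5.88, 5.66 and 6.16 in stimulated Tsc1-deficient CD4 cells, against 6.36, 6.20 and 6.37 in wild-type cells. It stood at 5.88 and 5.93 in Tsc1-deficient CD8 cells, against 6.85 and 6.77 in wild-type cells, and at 6.39, 6.61 and 6.48 in unstimulated Tsc1-deficient CD4 cells, against 7.04, 6.90 and 6.92 in wild-type cells. The groups did not overlap in any condition, and the changes were -0.41 ± 0.11, -0.90 ± 0.14 and -0.46 ± 0.11 (adjusted p 0.0299, 0.000955 and 0.0230). The CD8 call was kept in all omissions of an array, and the CD4 calls were lost in 4 of 6 and 5 of 6. Slc25a36 was lower in Tsc1-deficient cells in CD8 (-0.46 ± 0.11, adjusted p = 0.0225) and unstimulated CD4 cells (-0.46 ± 0.09, adjusted p = 0.00537), and both calls were lost when its 2 probe sets were averaged. Among other carriers of CD8 cells, Slc17a9, the vesicular nucleotide carrier, stood at 8.15 and 8.40 in Tsc1-deficient cells, against 7.14 and 7.29 in wild-type cells, higher by 1.06 ± 0.14 (adjusted p = 0.000235). Slc35g1 (-1.11 ± 0.32), Slc12a2 (-0.63 ± 0.15) and Slc25a30 (-0.54 ± 0.13) were lower there, with calls lost in 4, 3 and 4 of 4 omissions. Slc35g1 reached the level threshold only in wild-type CD8 cells. In unstimulated CD4 cells Slc25a33, a pyrimidine nucleotide carrier, was higher by 0.66 ± 0.15 and Slc25a24, which carries ATP and magnesium, was lower (-0.87 ± 0.20), each with a call lost in 3 of 6 omissions. Slc25a24 reached the level threshold only in unstimulated wild-type CD4 cells, so that it lay higher there was part of how it entered the set.

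Promoters are printed for 5 genes called between the genotypes, chosen after their values were seen, to show where a letter match lies. RefSeq windows (build GRCm38.p6, 250 bases before to 50 bases after the gene start) were at hand for 76 of the 102 carriers, 96 windows in all. CACGTG, the E-box that MYC and TFEB bind and that reads the same on both strands, is in 17.7% of the carriers' windows, 11.1% of the windows of genes at the same level and 7.15% of all 32851 windows. The metal response element core TGCACNC, searched on both strands and added after the zinc exporters had been seen, is in 14.6%, 11.8% and 12.6%. TGATGCAA, searched on both strands, an amino acid response element that ATF4 binds, is in 1 window of the carriers (Slc50a1), 0.522% and 0.895%. The printed windows hold 1 match each, so no match overlaps another, and a match is a description of letters and not of binding. The windows of Slc49a4 and Slc25a36 (lower in Tsc1-deficient cells) and Slc16a1 (higher) are printed with the E-box in capitals, and those of Slc30a1 and Slc30a4 (lower) with the metal response element, here on the opposite strand, in capitals.
Slc49a4 promoter, chr16:35769321-35769620 (- strand): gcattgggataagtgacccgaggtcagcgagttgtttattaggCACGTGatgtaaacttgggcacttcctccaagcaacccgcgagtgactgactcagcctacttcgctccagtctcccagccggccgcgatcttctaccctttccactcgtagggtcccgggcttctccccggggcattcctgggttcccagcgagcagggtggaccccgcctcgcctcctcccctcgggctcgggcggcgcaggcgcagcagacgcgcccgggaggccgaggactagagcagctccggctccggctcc
Slc25a36 promoter, chr9:97110992-97111291 (- strand): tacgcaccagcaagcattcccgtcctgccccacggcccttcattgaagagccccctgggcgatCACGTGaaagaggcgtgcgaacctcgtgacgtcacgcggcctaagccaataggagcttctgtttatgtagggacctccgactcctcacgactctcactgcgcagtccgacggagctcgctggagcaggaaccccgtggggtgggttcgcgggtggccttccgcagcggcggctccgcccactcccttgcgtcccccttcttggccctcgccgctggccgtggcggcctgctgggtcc
Slc16a1 promoter, chr3:104638414-104638713 (+ strand): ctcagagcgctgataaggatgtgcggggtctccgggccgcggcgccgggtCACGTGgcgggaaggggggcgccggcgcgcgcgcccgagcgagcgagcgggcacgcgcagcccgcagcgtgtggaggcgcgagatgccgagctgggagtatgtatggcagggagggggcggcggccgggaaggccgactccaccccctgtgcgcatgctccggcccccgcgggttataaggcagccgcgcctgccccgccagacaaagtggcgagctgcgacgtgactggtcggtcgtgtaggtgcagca
Slc30a1 promoter, chr1:191906531-191906830 (+ strand): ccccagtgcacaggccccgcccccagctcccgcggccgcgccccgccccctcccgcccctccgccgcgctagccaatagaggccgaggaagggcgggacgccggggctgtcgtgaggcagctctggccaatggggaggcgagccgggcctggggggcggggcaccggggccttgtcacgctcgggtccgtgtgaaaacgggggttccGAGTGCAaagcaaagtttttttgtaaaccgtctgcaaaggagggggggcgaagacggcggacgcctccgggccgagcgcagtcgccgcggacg
Slc30a4 promoter, chr2:122702614-122702913 (- strand): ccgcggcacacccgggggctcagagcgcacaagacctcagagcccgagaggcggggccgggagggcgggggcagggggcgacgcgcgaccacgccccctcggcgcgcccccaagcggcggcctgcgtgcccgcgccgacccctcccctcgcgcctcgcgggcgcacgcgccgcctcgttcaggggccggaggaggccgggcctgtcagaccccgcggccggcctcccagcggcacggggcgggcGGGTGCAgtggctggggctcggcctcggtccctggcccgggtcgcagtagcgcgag

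Of the carriers called between the genotypes, 10 hold an E-box or a metal response element. The 5 not printed, Slc25a14 and Slc25a33 with the E-box and Slc25a20, Slc35c1 and Slc3a1 with the metal response element, were all higher in Tsc1-deficient cells, while 4 of the 5 printed were lower. In the order printed, the capitals begin 207, 187, 200, 43 and 6 bases before the gene start. Genes with and without such a match were called in both directions, and nothing on the factors follows from the letters.

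**Figure D5:**
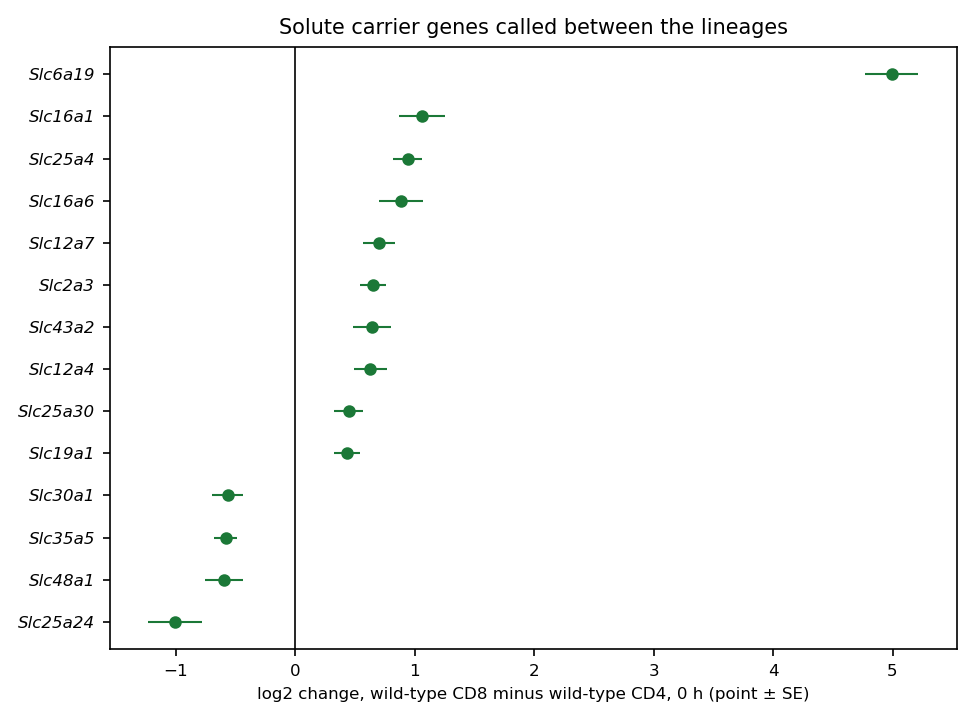
Log2 change (unstimulated wild-type CD8 minus unstimulated wild-type CD4 cells, point ± SE) of the 14 carriers called between the lineages. Slc6a19 lies at 4.99, and the other 13 lie between -1.01 and 1.06.

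Between the lineages 10 carriers were higher and 4 lower in wild-type CD8 than in wild-type CD4 cells (9.80% and 3.92%), beside 4.15% and 4.43% of the genes at the same level and 5.04% of all genes called either way. Beside Slc6a19, the higher ones were the monocarboxylate carriers Slc16a1 and Slc16a6, Slc25a4, Slc2a3, the chloride cotransporters Slc12a7 and Slc12a4 (0.63 ± 0.14), Slc43a2 (0.64 ± 0.16), Slc25a30 (0.45 ± 0.12) and Slc19a1 (0.43 ± 0.11). The lower ones were Slc25a24 (-1.01 ± 0.23, set against the 1 group in which it reached the level threshold), the heme carrier Slc48a1 (-0.59 ± 0.16), Slc35a5 (-0.58 ± 0.10) and Slc30a1 (-0.57 ± 0.13). With 2 CD8 arrays, leaving out wild-type CD8 array 1 or 2 left 7 and 6 calls, and Slc6a19, Slc16a1, Slc25a4, Slc12a7, Slc2a3 and Slc35a5 were kept in every omission. Averaging the probe sets of each gene lost the calls of Slc2a3, Slc25a30, Slc30a1, Slc35a5 and Slc48a1.

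In no comparison were 17 of the 102 carriers called. They include Slc2a1 and Slc1a5, the zinc exporters Slc30a5 and Slc30a6, the zinc importers Slc39a7, Slc39a9 and Slc39a10, and the citrate carrier Slc25a1. Of other carriers well known in leukocytes, the copper importer Slc31a1, the phagosomal metal carrier Slc11a1 and the aromatic amino acid carrier Slc16a10 stayed below the level threshold, with largest group means of 5.54, 4.26 and 3.04, and Slc1a4, Slc36a4 and Slc11a2 were not analysed here. Where a called gene had further probe sets naming it alone, none of these was called in the opposite direction in any comparison, and another was called the same way for 23 of 39 such genes on stimulation of Tsc1-deficient cells, 24 of 39 on stimulation of wild-type cells, and 2 of 6, 2 of 4 and 0 of 3 between the genotypes in stimulated CD4, CD8 and unstimulated CD4 cells.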

How the data were processed

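RNA of 16 samples was measured on single-colour Affymetrix arrays. The deposited values are log2 signals per probe set, made by the authors by RMA in Partek 6.5, per the submitters' processing notes, and they were used as deposited. RMA removes background and brings all arrays to one distribution, so a shift of all genes cannot be seen. The precision is set by how many arrays a group has. No genome build is named in the labels.

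Of 45141 probe sets, 28898 named 1 gene in the platform annotation, and each of 17097 genes was represented by its probe set with the highest mean (7180 genes had several). Slc entries that name several genes were left out. Group means were fitted with limma 3.58.1 in R 4.3.3 (lmFit, contrasts and eBayes, 10 residual degrees of freedom) for 8 comparisons, with Benjamini-Hochberg adjustment within each. Members were grouped by substrate from textbook knowledge. Genes named were, per comparison, up to 8 members with the highest and up to 8 with the lowest called change whose arrays do not overlap, all called carriers of amino acids, sugars, monocarboxylates, metals and nucleosides, the carriers best known in T cells, and the genes next to the level threshold; other names were chosen after their values were seen. The members, classes and lists were chosen with earlier results of these data known. The test was tried on simulated data. Alternatives were other normalizations, probe set rules, priors, filters, subsets of arrays and blocks, and a Gapdh covariate added after seeing the data.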

Additional observations from a re-analysis of the deposited data

Results flagged for a closer look

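For 3 carriers the fitted change on stimulation differed between the genotypes by a direct test of the difference (Tsc1-deficient minus wild-type CD4 cells). Slc16a5 differed by 1.03 (adjusted p = 0.0457, limma), but both genotypes ended below the table median, so the value restates the 0 h difference of -1.04 and does not compare the responses, and its call was lost in 9 of 12 omissions of an array. Slc25a45 differed by -0.73 (adjusted p = 0.0171) and Slc28a2 by -0.78 (adjusted p = 0.0127), both falling more in Tsc1-deficient than in wild-type cells. In all 3 genes the 0 h levels of the genotypes were called different as well. No cause was tested.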

How the results depend on the processing

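Counts of called carriers moved by over 1.5 times under these settings. Without the 2 arrays with high Gapdh values there were 23 calls between the genotypes in unstimulated CD4 cells (against 10), 22 between the lineages (14) and 5 differences between responses (3). Fitting the compared groups alone gave 16 calls in unstimulated CD4 (10), 7 in stimulated CD4 (16) and 5 in CD8 cells (12). Testing only genes at 6 or above gave 19 in unstimulated CD4 cells and 6 differences between responses, and the Gapdh covariate, chosen after seeing the data, gave 18 in unstimulated CD4 cells. With single arrays left out, calls ran from 8 to 19 in stimulated CD4 (8 without wild-type array 1), 3 to 8 in CD8 (3 and 4 without wild-type array 1 or 2), 5 to 8 in unstimulated CD4 (5 without array 1 of either genotype), 66 to 71 and 60 to 65 for stimulation of Tsc1-deficient and wild-type cells, 1 to 5 for differences between responses (1 without unstimulated Tsc1-deficient array 3 or wild-type array 2, 5 without stimulated Tsc1-deficient array 3), 6 to 12 between the lineages, and 0 to 0 for genotype by lineage. The cause was not tested. Averaging probe sets reversed 2 values that were not called: Slc35a5 on stimulation of wild-type cells came to 0.28 (adjusted p = 0.0260) and Slc48a1 to -0.32 (adjusted p = 0.0376). The other 127 recomputed counts stayed within 1.5 times. Neighbouring array numbers as a replicate block gave 70 and 68 stimulation calls and 3 differences between responses, with Slc28a2 at an adjusted p of 0.0506. Deviations of neighbouring arrays correlated at 0.030 to 0.077, so the numbers were not shown to pair samples. With 2 or 3 arrays per group, and carriers below the table median near the floor of the arrays, small changes of low carriers are not resolved.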

Other observations

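The level of Slc15a2 kept its order over arrays with neighbouring numbers in the labels. In Tsc1-deficient CD4 cells arrays 1, 2 and 3 stood at 10.56, 7.54 and 8.46 at 4 h, against 8.94, 5.81 and 6.97 at 0 h, and in wild-type cells at 9.36, 9.74 and 9.09 at 4 h, against 7.39, 7.99 and 6.90 at 0 h. With these numbers as a block its rise was 1.61 (adjusted p = 9.55e-07, limma) in Tsc1-deficient and 1.97 (adjusted p = 3.24e-07) in wild-type cells. The labels do not say whether such arrays share an animal, and the gene was chosen after its values were seen. Its other 2 probe sets, with mean levels of 3.02 and 2.94, did not show this rise.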
